A study of Mus musculus with 2 samples.

Results

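Endothelial identity genes are the genes by which the lining cells of blood and lymph vessels are usually recognised. The 33 genes examined here were taken by name: every non-control spot of the arrays whose gene was one of 33 vascular or lymphatic endothelial genes, leaving out the VEGF and angiopoietin receptors. They lay on 55 of the 41174 probes and 82 of the 43379 gene spots. All 33 were among the 16698 genes that could be measured.

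The RNA came from whole kidney of male CD-1 mice that were 7 weeks old at the start. The HMPA mice ate AIN-93G diet holding 0.2% adenine by weight and 2% HMPA, 3-(4-hydroxy-3-methoxyphenyl)propionic acid, for 1 week. The mice on adenine alone ate the same 0.2% adenine diet without HMPA for 1 week. All mice thus received adenine, a diet that injures the tubules and serves as a model of chronic kidney disease, and no kidney from an adenine-free diet was on the arrays. The titles give an age of 12 weeks instead and name 5 mice, without saying whether that is per diet or whether RNA was pooled.

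Both conditions were hybridised together on each of 2 dual-colour arrays. HMPA carried Cy5 on array 1 and Cy3 on array 2, and adenine alone the opposite dye. Separate animals for each array are not named, so each condition counts as 1 RNA sample measured with either dye. The spread between the arrays covers labelling and hybridisation and says nothing about mice, and no p-value can be given.

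Endothelial cells hold together through VE-cadherin and claudin-5 junctions, carry a coat of sialomucins, and keep their identity through ETS and SOX transcription factors. They also keep blood fluid, through thrombomodulin and the protein C receptor, and set vessel tone through nitric oxide and endothelin. In the kidney they form the fenestrated glomerular and peritubular capillaries, the arterioles, the vasa recta and a sparse lymphatic bed.

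With HMPA, 5 of the 33 endothelial genes were lower than with adenine alone and 0 were higher. The 5 were the vasoconstrictor gene Edn1, the adventitial gene Pi16, thrombomodulin (Thbd), the adrenomedullin receptor gene Calcrl and the sialomucin gene Cd34. A gene was counted by a rule of size: its mean ratio had to reach 2-fold, and each array alone 1.5-fold the same way. The rule called 15.2% of the endothelial genes lower, against 7.72% of all 16698 genes (1289), while 6.64% of all genes (1109) were called higher. Each of the 5 rests on 1 usable probe. No test stands behind either share. For the contrast of the dyes, the rule called 0 genes (0.0%). The diets cancel only in the mean of that contrast, not on each array. A gene whose HMPA ratio had the same sign on both arrays could not be called there. The 0 is therefore no measure of the noise behind either share.

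The other 28 endothelial genes had mean log2 ratios of HMPA over adenine alone between −0.78 and 0.41, with a median of −0.19. VE-cadherin (Cdh5), Pecam1, Erg, Nos3 and the caveolins were among them. The median over all 33 genes was −0.27, with −0.30 on array 1 and −0.36 on array 2, against −0.04 over all genes. Their interquartile range was −0.67 to −0.09, against −0.37 to 0.27 for all genes. Of the 33 genes, 28 lay below the median of all genes. The ratio was below 0 on both arrays for 21 endothelial genes (63.6%), against 42.9% of all genes. It was above 0 on both arrays for 2, Prox1 and Ednrb, and changed sign between the arrays for 10. The share within 0.5 of 0 was 66.7% for the endothelial genes and 64.4% for all genes, so the shift came with a body of small ratios and a tail on the lower side.

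**Figure D1:**
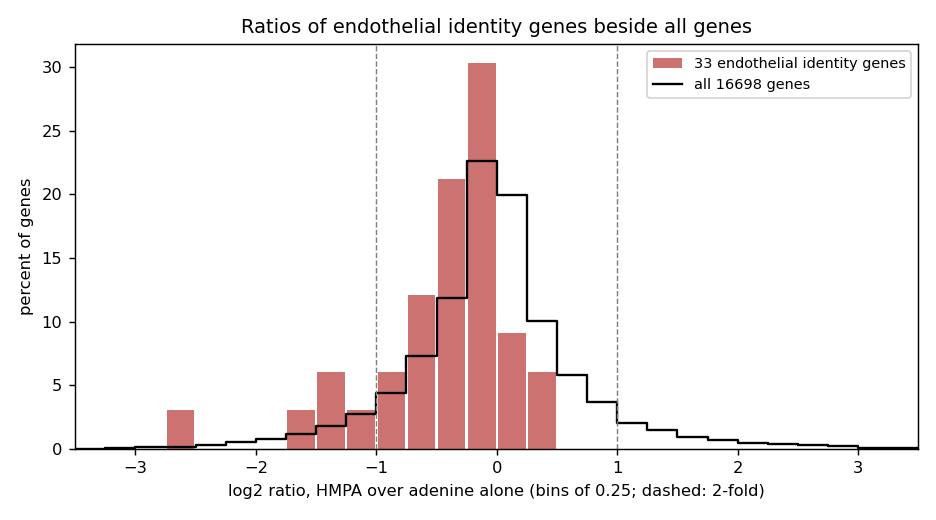
Distribution of log2 ratios (HMPA over adenine alone, mean of 2 arrays; x axis) as the percentage of genes per bin (y axis), for the 33 endothelial identity genes and for all 16698 measured genes. Most endothelial genes lie near 0, with a median of −0.27 against −0.04 for all genes, and Edn1 lies farthest out at −2.59.

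The ± gives how far either array lay from their mean, and its median was 0.10 for the endothelial genes and 0.11 for all genes. Over all genes the ratios of the arrays correlated with r = 0.889, as a description across genes that are not replicates. The share of gene spots well above background was 57.9% and 61.2% for HMPA on arrays 1 and 2, and 60.9% and 67.9% for adenine alone. Of the 33 endothelial genes, 32 were above background in all 4 channels, including Pecam1, Cdh5 and Emcn, and the exception was Lyve1. Intensities below are normalised and linear, and a probe below background reads near 55, so intensities serve to compare conditions for 1 probe and not genes with each other. In whole-kidney RNA, fewer endothelial cells and less RNA per endothelial cell cannot be told apart.

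**Figure D2:**
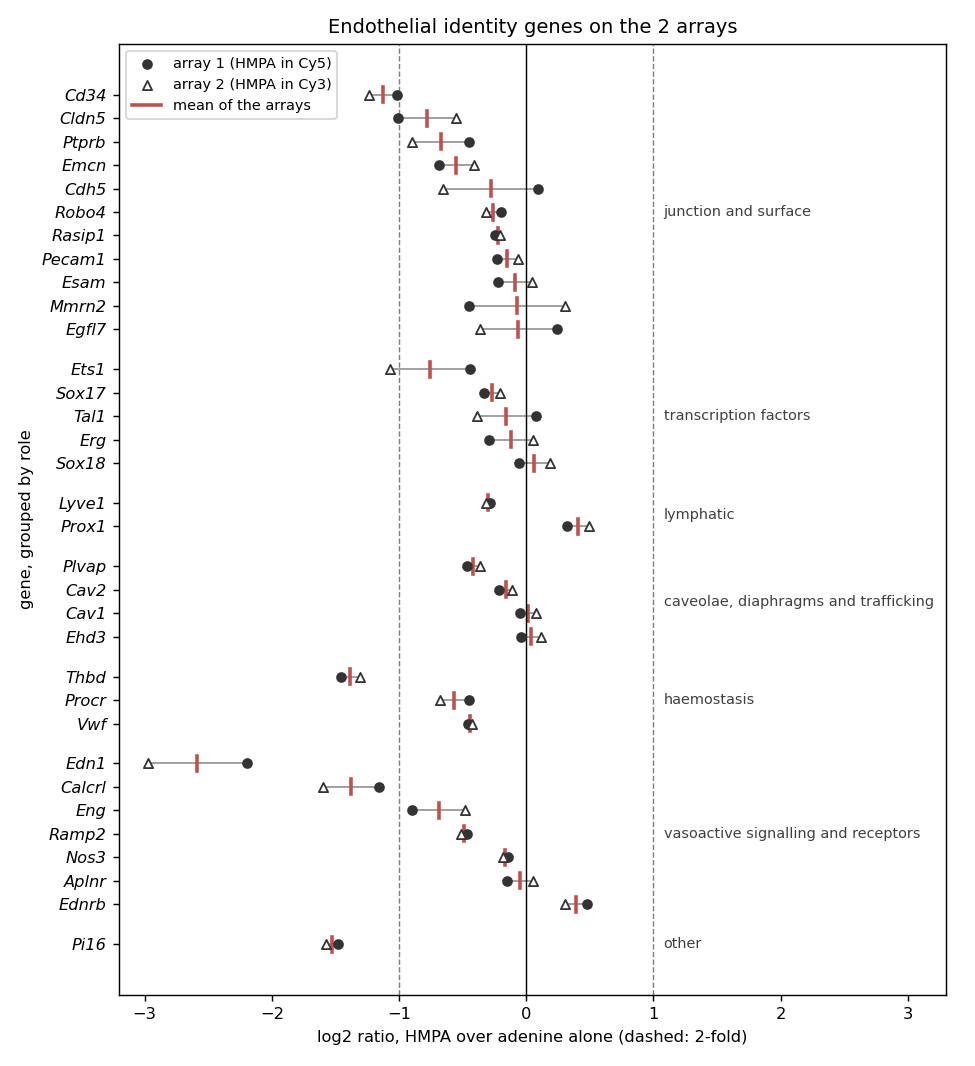
Log2 ratio of HMPA over adenine alone (x axis) for each endothelial identity gene (y axis, grouped by role) on array 1 (filled circles), on array 2 (open triangles) and as their mean (bar). Dashed lines mark 2-fold. Edn1, Pi16, Thbd, Calcrl and Cd34 lie beyond the line at −1 on both arrays, and no gene reaches the line at 1.

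Sequence around the gene's start is shown for the genes that met the rule, since it is a property the choice of genes did not use. RefSeq promoters of build GRCm38.p6, running from 250 bases before to 50 after a gene's start, were found for 18 of the 33 genes, 25 promoters in all, and for 4 of the 5 lower genes. Capitals mark short motifs on either strand. ETS-like letters were searched as AGGAAG. The other ETS-like form was CCGGAA. SOX-like letters were ACAAAG. For GATA factors the letters were AGATAA. Kruppel-like letters were CACCC. The TATA box was searched as TATAAA. The Edn1 window is chr13:42301226-42301525 (+ strand), Calcrl chr2:84425217-84425516 (− strand), Cd34 chr1:194938571-194938870 (+ strand) and Pi16 chr17:29318632-29318931 (+ strand), each printed 5′ to 3′ along its gene.
Edn1: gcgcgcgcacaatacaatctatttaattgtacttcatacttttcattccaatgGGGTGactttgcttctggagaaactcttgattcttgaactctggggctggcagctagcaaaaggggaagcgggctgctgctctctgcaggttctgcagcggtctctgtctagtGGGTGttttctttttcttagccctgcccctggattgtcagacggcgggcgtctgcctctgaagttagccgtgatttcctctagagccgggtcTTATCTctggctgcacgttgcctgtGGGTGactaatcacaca
Calcrl: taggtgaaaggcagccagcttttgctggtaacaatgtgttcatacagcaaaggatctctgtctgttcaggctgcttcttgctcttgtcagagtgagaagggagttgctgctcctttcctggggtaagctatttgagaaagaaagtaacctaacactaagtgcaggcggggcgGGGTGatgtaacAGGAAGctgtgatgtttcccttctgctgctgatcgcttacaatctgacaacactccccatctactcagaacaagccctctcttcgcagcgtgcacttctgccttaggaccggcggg
Cd34: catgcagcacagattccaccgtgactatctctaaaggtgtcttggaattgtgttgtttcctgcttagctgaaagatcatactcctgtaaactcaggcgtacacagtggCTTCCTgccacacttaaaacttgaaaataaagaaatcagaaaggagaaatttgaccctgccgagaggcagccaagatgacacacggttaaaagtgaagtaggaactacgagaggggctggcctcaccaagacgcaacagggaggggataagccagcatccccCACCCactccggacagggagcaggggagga
Pi16: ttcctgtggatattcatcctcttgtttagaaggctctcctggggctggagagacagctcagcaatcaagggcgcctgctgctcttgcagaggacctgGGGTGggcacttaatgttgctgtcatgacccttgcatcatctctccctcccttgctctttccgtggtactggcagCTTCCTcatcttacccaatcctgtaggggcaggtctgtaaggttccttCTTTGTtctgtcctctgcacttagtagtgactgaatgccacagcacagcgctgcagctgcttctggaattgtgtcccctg
The Edn1 window holds GATA-like letters, here as their reverse complement and after the gene's start. It also holds 3 copies of the Kruppel-like letters, the last of them after the start. The windows of Calcrl, Cd34 and Pi16 each hold AGGAAG or its reverse complement, and 1 copy of the Kruppel-like letters. The Pi16 window also holds the SOX-like letters as their reverse complement. Over the 25 endothelial promoters, AGGAAG was found in 48.0%, against 35.4% of all 32851 promoters in the table. CCGGAA was found in 0, against 14.9%, so the share with either ETS-like form was 48.0%, against 45.2%. The SOX-like letters stood in 16% of endothelial and 18.7% of all promoters, the GATA-like letters in 12.0% and 11.2%, the Kruppel-like letters in 68.0% and 57.5%, and the TATA box in 12.0% and 13.6%. The median GC content per gene was 58.3% for the endothelial genes and 52.7% for all. A match is a run of letters and not a binding site, and these shares are a description of 18 genes.

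Among the vasoactive genes, Edn1, Calcrl and Eng gave the lowest ratios and Ednrb the highest. Edn1 encodes the precursor of endothelin-1, a strong vasoconstrictor peptide made by endothelial cells and also by tubule cells. Its probe, on chromosome 13 at 42403101 to 42403160 of mouse build mm9, read 176 and 130 with HMPA on arrays 1 and 2, against 808 and 1020 with adenine alone. Edn1 thus stood well apart between the conditions on both arrays, at −2.59 ± 0.39 on the log2 scale or 6.0-fold lower. Only 0.36% of all genes had a lower ratio. Ednrb, which encodes an endothelin receptor found on endothelium and on collecting duct cells, read 379 and 375 with HMPA, against 272 and 303 with adenine alone. Its ratio was 0.39 ± 0.09 and did not meet the rule. A second Ednrb probe gave 0.06, with opposite signs on the arrays.

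Calcrl and Ramp2 together form a receptor for adrenomedullin, a peptide that relaxes vessels and tightens the endothelial barrier. Calcrl, on chromosome 2 at 84171069 to 84171128 (mm9), read 494 and 420 with HMPA, against 1100 and 1270 with adenine alone. It was lower on both arrays, at −1.38 ± 0.22 or 2.60-fold. Its other probe was too dim and was not used. Ramp2, the partner chain, read 1660 and 1640 with HMPA, against 2290 and 2350 with adenine alone. Its ratio of −0.49 ± 0.03 was below 0 with little distance between the arrays and did not meet the rule.

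Endoglin (Eng), a co-receptor for TGF-beta family ligands, read 476 and 564 with HMPA, against 885 and 788 with adenine alone, a ratio of −0.69 ± 0.21. Nos3, the endothelial nitric oxide synthase, read 92.6 and 96.7 with HMPA, against 102 and 110 with adenine alone. These are small gaps at a low signal, with a Nos3 ratio of −0.16 ± 0.02. The apelin receptor gene Aplnr read 115 and 122 with HMPA, against 128 and 118 with adenine alone, and its ratio of −0.05 ± 0.10 had opposite signs on the arrays. Of the 7 vasoactive genes, 2 were lower by the rule and 0 higher, with a median of −0.49.

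**Figure D3:**
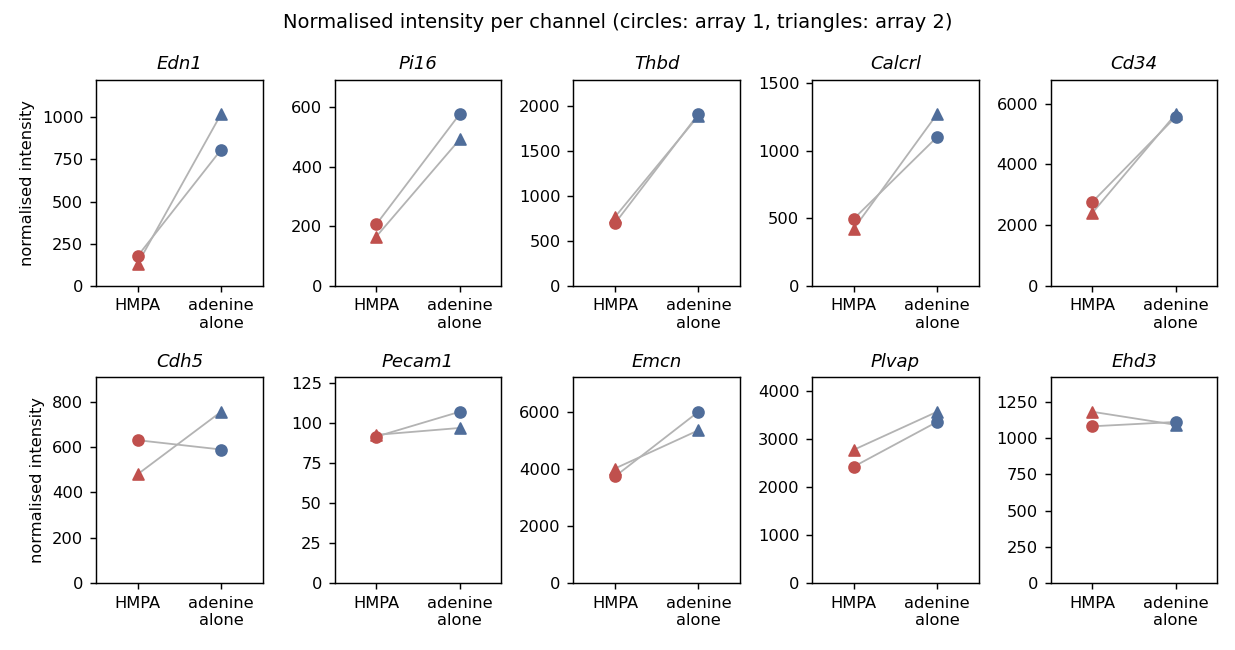
Normalised intensity (y axis, linear from 0, own scale for each gene) of 10 endothelial identity genes, with HMPA left of adenine alone, array 1 as circles, array 2 as triangles and a line joining the channels of an array. The HMPA values of Edn1, Pi16, Thbd, Calcrl and Cd34 lie below the adenine values on both arrays, while the lines of Cdh5 and of Ehd3 run in opposite directions.

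All 3 haemostasis genes had ratios below 0 on both arrays, and 1 met the rule. Thrombomodulin binds thrombin on the endothelial surface and turns it towards protein C. Thbd, on chromosome 2 at 148230235 to 148230294 (mm9), read 694 and 765 with HMPA, against 1910 and 1890 with adenine alone. The conditions were far apart and the arrays close together, at −1.38 ± 0.08 or 2.61-fold lower. Procr, the receptor that presents protein C to thrombomodulin, read 451 and 384 with HMPA, against 618 and 615 with adenine alone, a ratio of −0.57 ± 0.11. Vwf, which encodes the platelet-binding von Willebrand factor, read 173 and 183 with HMPA, against 238 and 247 with adenine alone, a ratio of −0.44 ± 0.01. A second Vwf probe gave −0.19. Vwf is also made in megakaryocytes. Of 5 platelet marker genes 3 were measured, while Itga2b and Gp1ba had no usable probe. Of the 3, Pf4 was lower at −2.12 ± 0.53 while Ppbp (−0.07 ± 0.07) and Gp9 (0.05 ± 0.08) were not. The platelet markers summed to 523 and 430 with HMPA, against 1240 and 1840 with adenine alone, with 2 of the 3 above background on both arrays with HMPA and 3 with adenine alone. Their part in the haemostasis ratios was not tested.

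Among the 11 junction and surface genes, Cd34 alone met the rule, and the group's median was −0.26. Cd34 is a sialomucin of capillary endothelium that is also found on haematopoietic progenitors and on many fibroblasts. Its probe, on chromosome 1 at 196787392 to 196787451 (mm9), read 2760 and 2400 with HMPA, against 5570 and 5660 with adenine alone. Cd34 was lower on both arrays, at −1.12 ± 0.11 or 2.18-fold. The related sialomucin endomucin (Emcn), largely restricted to capillary and venous endothelium, read 3750 and 4030 with HMPA, against 6020 and 5370 with adenine alone, a ratio of −0.55 ± 0.14.

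Claudin-5 (Cldn5), the main tight-junction claudin of endothelium, read 287 and 367 with HMPA, against 576 and 540 with adenine alone. Its ratio was −0.78 ± 0.23, the lowest among the genes that did not meet the rule. On array 1 alone (−1.01) and with median centring in place of loess (−1.11) Cldn5 met it. Ptprb, or VE-PTP, a phosphatase that acts on VE-cadherin junctions and on the Tie2 receptor, read 2250 and 1710 with HMPA, against 3070 and 3190 with adenine alone, a ratio of −0.67 ± 0.23. VE-cadherin itself (Cdh5) read 630 and 480 with HMPA, against 589 and 755 with adenine alone. Its arrays lay on opposite sides of 0, for a ratio of −0.28 ± 0.38, and a second Cdh5 probe gave −0.06.

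Pecam1, an adhesion molecule shared by endothelium, platelets and leukocytes, read 91.5 and 92.6 with HMPA, against 107 and 96.9 with adenine alone. Its ratio was −0.15 ± 0.08, and its 10 repeat spots, of which 10 and 7 were usable, had an SD of 0.07 and 0.05 on arrays 1 and 2. Robo4, an endothelial receptor of the roundabout family, gave −0.26 ± 0.06, and Rasip1, a Rap1 effector needed for vessel lumens, gave −0.22 ± 0.02. Esam, an adhesion molecule of endothelial tight junctions, gave −0.09 ± 0.13. The matrix glycoprotein gene Mmrn2 (−0.07 ± 0.38) and the secreted factor gene Egfl7 (−0.06 ± 0.30) stood close to 0 on average. Esam, Mmrn2 and Egfl7 each had opposite signs on the arrays.

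None of the 5 transcription factor genes met the rule, and their median was −0.16. Ets1, an ETS factor of endothelium that lymphocytes also make, read 590 and 434 with HMPA, against 803 and 910 with adenine alone, a ratio of −0.76 ± 0.31. It met the rule on array 2 alone (−1.07) and with median centring (−1.07). All 4 Ets1 probes gave negative means, between −0.97 and −0.31. Of 6 lymphocyte marker genes 5 were measured (all but Cd79a) and 0 met the rule, with a median of −0.17 and sums of 540 and 562 with HMPA, against 730 and 751 with adenine alone. The part of lymphocytes in the Ets1 ratio was not tested.

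Erg, the ETS factor most closely tied to endothelial identity, read 309 and 338 with HMPA, against 379 and 326 with adenine alone, a ratio of −0.12 ± 0.17 with opposite signs on the arrays. Sox17, a factor of arterial endothelium, gave −0.27 ± 0.06, and Sox18 gave 0.07 ± 0.12. Sox18 turned to −0.25 with median centring. Tal1, a basic helix-loop-helix factor of blood and endothelial precursors, gave −0.16 ± 0.23.

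Of the 4 genes of caveolae, diaphragms and vesicle trafficking none met the rule, with a median of −0.07. Plvap, which builds the diaphragms of fenestrae and caveolae and is high in peritubular capillaries, read 2420 and 2770 with HMPA, against 3350 and 3560 with adenine alone. Its ratio of −0.42 ± 0.05 was below 0 on both arrays. The caveolar coat genes were near 0, with Cav1 at 0.01 ± 0.06 and Cav2 at −0.16 ± 0.05. The 10 repeat spots of Cav2, of which 10 and 9 were usable, had an SD of 0.23 and 0.19. That is the spread of single spots, while the ± compares means over spots. Ehd3, a trafficking gene known in mouse kidney from glomerular endothelium, gave 0.04 ± 0.08. Cav1 and Ehd3 turned below 0 with median centring.

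The lymphatic genes Prox1 and Lyve1 had ratios of opposite sign. Prox1, the transcription factor that sets lymphatic identity, read 109 and 117 with HMPA, against 86.7 and 83.4 with adenine alone. Its ratio of 0.41 ± 0.08 was the highest of the 33 genes and did not meet the rule. The size of the Prox1 ratio depended on the processing. It was 0.53 without background correction, 0.97 with the scanner software's own ratios and 0.19 with median centring. The other Prox1 probes were too dim and were not used. Lyve1, a hyaluronan receptor of lymphatic capillaries that some tissue macrophages also carry, read 62.2 and 58.7 with HMPA, against 75.9 and 73.1 with adenine alone. It was not well above background with HMPA on either array, so the size of the Lyve1 difference is uncertain. The measured ratio was −0.30 ± 0.01, or 1.23-fold lower. That ratio itself serves as the bound, without allowance for noise at background. The other Lyve1 probe was at background in both conditions and was not used. The scanner software's own ratio for Lyve1 was −2.67, which meets the rule and comes from a signal at background. All 11 macrophage marker genes were measured and all 11 were lower, with a median of −2.05. Their sums were 12400 and 10700 with HMPA, against 75700 and 74400 with adenine alone, and none was at background in either condition. Their part in the Lyve1 ratio was not tested.

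Pi16, peptidase inhibitor 16, stands apart in the list, because in mouse tissues it is best known as a marker of adventitial fibroblasts. Its probe, on chromosome 17 at 29465606 to 29465665 (mm9), read 206 and 165 with HMPA, against 576 and 491 with adenine alone. Pi16 was lower on both arrays, at −1.53 ± 0.05 or 2.88-fold. Of 13 mural and fibroblast markers, all measured, 9 were lower by the rule and 0 higher, with a median of −1.56. They summed to 16400 and 14400 with HMPA, against 85700 and 80400 with adenine alone, and all 13 were above background in both conditions. Examples were Col1a1 at −3.23 ± 0.17, Pdgfrb at −1.85 ± 0.16 and Dcn at −1.81 ± 0.39, while the smooth muscle myosin gene Myh11 was at 0.14 ± 0.15. The part of fibroblasts in the Pi16 and Cd34 ratios was not tested.

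Edn1 and Ednrb have a tubular side as well. Of 7 collecting duct markers 6 were measured (all but Foxi1), 4 were higher by the rule and 0 lower, with a median of 1.75 and sums of 13000 and 12600 with HMPA, against 2700 and 2910 with adenine alone. All 8 proximal tubule markers were measured and 7 were higher, with sums of 188000 and 174000 with HMPA, against 27400 and 40100 with adenine alone. The measured markers of both lists had ratios above 0 on both arrays, and Edn1 below 0. The Ednrb ratio was 0.39, but 0.06 with opposite signs on its second probe and 0.06 with median centring. The part of tubule cells in the Edn1 and Ednrb ratios was not tested. Each array was normalised as a whole, so every ratio is relative to the other RNA in the sample.

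Endothelial genes outside the 33 were also measured. Of 22 other pan-endothelial genes, 7 were lower by the rule and 0 higher, with a median of −0.14. The ratio was below 0 on both arrays for 10 of the 22, above 0 on both for 6, and of opposite sign for 6. The lower genes were the small GTPase gene Rhoj (−1.73 ± 0.11), the surface genes Ecscr (−1.43 ± 0.31) and Mcam (−1.39 ± 0.20), the ETS factors Elk3 (−1.40 ± 0.03) and Fli1 (−1.32 ± 0.03), and the Nos3-binding gene Nostrin (−1.02 ± 0.33). The surface gene Cd93 was just past the rule, with −0.93 on array 1 and −1.07 on array 2. Several of these are also made elsewhere, Mcam in mural cells and Fli1 in blood cells. The VEGF and angiopoietin receptors had 1 of 7 lower, Nrp2 at −1.13 ± 0.02, and a median of −0.04. Kdr, the main VEGF receptor of endothelium, was at 0.51 ± 0.10.

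Of 12 arterial and Notch genes 11 were measured and 4 were lower: the guidance receptor gene Unc5b (−1.97 ± 0.01), the Notch ligand gene Jag1 (−1.41 ± 0.07), the arterial ephrin gene Efnb2 (−1.20 ± 0.19) and the connexin gene Gja5 (−1.03 ± 0.18). The endothelial Notch ligand gene Dll4 (0.03 ± 0.14) and receptor gene Notch4 (−0.12 ± 0.12) were near 0, and the list's median was −0.26. Of 4 venous genes 3 were measured and none met the rule, with values between −0.53 for Nr2f2 and −0.29 for Selp. Of 6 other lymphatic genes 1 was lower, Thy1 at −2.52 ± 0.52, which T cells and fibroblasts also carry, and the median was 0.01.

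Of 5 genes of activated endothelium 3 were measured, and the leukocyte adhesion genes Vcam1 (−2.92 ± 0.24) and Icam1 (−1.34 ± 0.01) were lower. Both are also made by injured tubule cells. Selp, whose product endothelium and platelets store, was at −0.29 ± 0.11. Of 4 flow-responsive genes, the factors Klf4 (−2.02 ± 0.05) and Klf2 (−1.67 ± 0.09) were lower, and Hmox1 was at 0.56 ± 0.32. These lists were chosen with earlier results known, and all genes share the background of 7.72% lower and 6.64% higher.

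**Figure D4:**
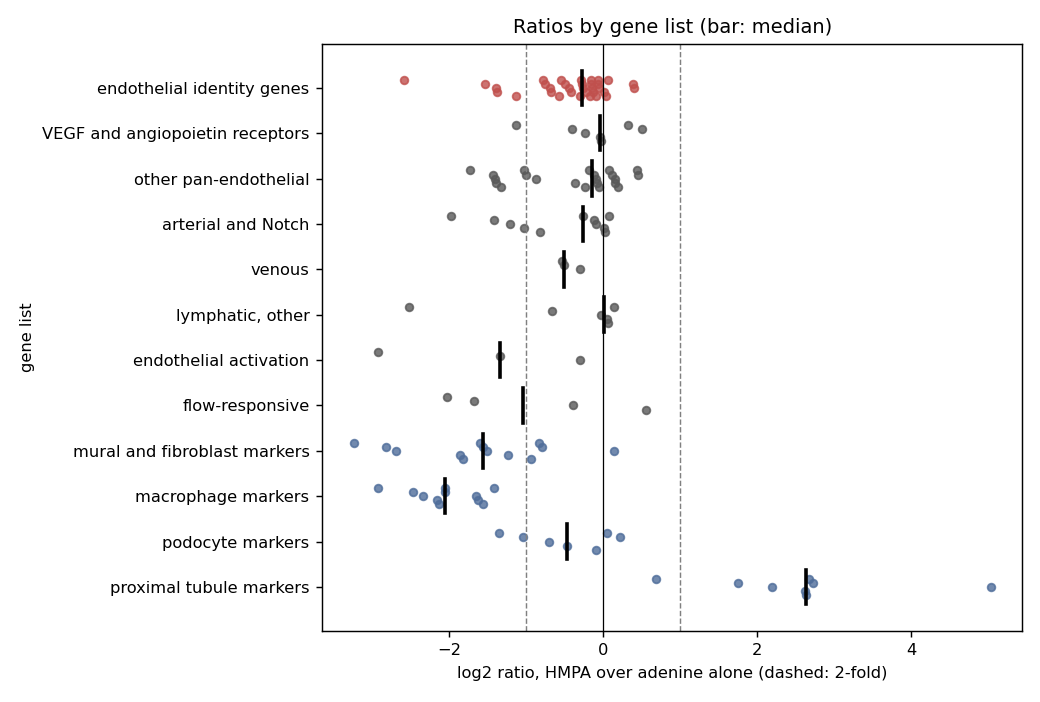
Log2 ratios of HMPA over adenine alone (mean of 2 arrays) of single genes (points), with the median of each list marked, for the endothelial identity genes, the other endothelial lists and the markers of 4 other kidney cell types, with 2-fold dashed. The endothelial identity genes centre on −0.27, the macrophage markers on −2.05, the mural and fibroblast markers on −1.56 and the proximal tubule markers on 2.63.

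With the smaller rule of a 1.5-fold mean and the same sign on each array, 9 of the 33 genes (27.3%) were lower and 0 higher, against 16.6% lower and 13.9% higher among all genes. The 4 added genes were Cldn5, Ets1, Eng and Ptprb. For 8 of the endothelial genes 2 or more probes could be compared, with gaps between 0.04 and 0.66 on the log2 scale and no opposite signs. Among all 6031 genes with 2 or more usable probes, 7.78% had a gap over 1, and none of the 8 endothelial genes did. So few genes are too small a number to set against that share. None of the 5 genes lower by the 2-fold rule was among the 8.

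Edn1, Pi16, Thbd, Calcrl and Cd34 met the 2-fold rule under each of the 9 other settings run with that rule. The settings that changed the filter or the probe rule could not alter these genes. Each rests on 1 usable probe that was above background in all 4 channels. Edn1 ranged from −3.14 with the scanner software's ratios to −2.20 on array 1 alone, and Cd34 from −1.26 with median centring to −1.01 on array 1 alone. Median centring moved the median of all genes to −0.22, so values under it are read against that shift: the median of the 33 genes was −0.56 there, a difference of −0.34 from all genes, compared with −0.23 with loess. It also changed the split over all genes to 749 higher and 1973 lower.

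**Figure D5:**
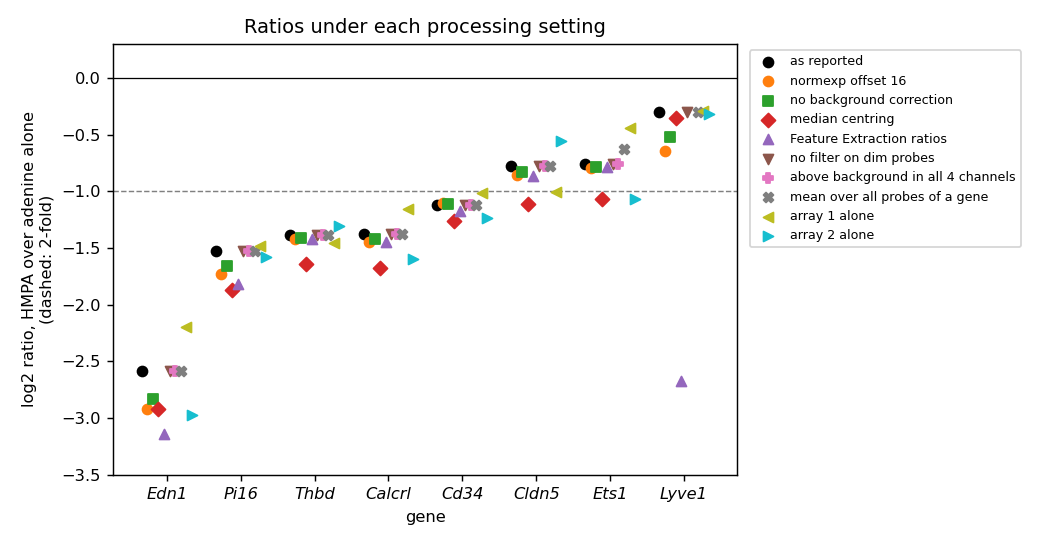
Log2 ratio of HMPA over adenine alone (y axis) of 8 endothelial identity genes (x axis) under each processing setting (symbols), with 2-fold dashed. Edn1, Pi16, Thbd, Calcrl and Cd34 lie below −1 under every setting shown, Cldn5 and Ets1 cross that line with median centring and on 1 array alone, and Lyve1 lies at −2.67 with the scanner software's ratios and above −1 otherwise.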

How the data were processed

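Kidney RNA of 2 conditions, 1 RNA sample each, was measured on 2 arrays of 1 slide and 1 scan with the dyes swapped. Per the labels' protocols, QIAzol extracts were made into Cy3- or Cy5-labelled cRNA. Per the file headers, the authors' scans were read by Feature Extraction 12.2.0.7. The submitters' processing notes give 9.5. The deposited spot and background signals are intensity values per the file headers, not normalised. The deposited log10 ratio holds red over green after the software's own background and dye correction, per the file headers, and served as an alternative after conversion to log2. The authors' deposited value table repeats these log10 ratios to within 0.00499, with a median of 0.0000 on each array, not turned for the dyes.

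Background was corrected with limma 3.58.1 in R 4.3.3 (normexp, offset 50), control and unreliable spots got weight 0, and loess was run on each array. Array 2 was sign-turned so that every ratio is HMPA over adenine, and log2 ratios were averaged per probe. The offset compresses ratios of dim probes. A probe was kept when at least 0.5 of its spots were well above background on both arrays in 1 and the same condition, leaving 25138 of 41174. A gene was represented by its kept probe with the highest mean signal. Of the 43379 gene spots, 281 and 297 were unreliable on arrays 1 and 2 and 0 were saturated. Normalised intensities are channel values after loess and between-array scaling of average signal. Array number limits the precision.

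Kept probes were named from a RefSeq table (GRCm38.p6) by accession (21374), symbol (1932) or older symbol (8), or kept the file's name (1824). Of the 55 endothelial probes, 48 were named by accession and 7 by symbol. Probe positions are the files' (mm9). Exon and UTR positions were not assigned. Python 3.11.15 with pandas 2.3.3, numpy 2.4.6 and matplotlib 3.10.9 did the rest, and the procedure was tested on simulated data. All 33 endothelial genes are named, from marker lists examples (1 marker gene is not reported here by name), and from other endothelial lists those that met the rule, else the highest and lowest, and a few more (Dll4, Notch4, Kdr, Selp, Hmox1, Ppbp, Gp9 and Myh11) were chosen after their values were seen. The members and lists were chosen with earlier results of these data known. Marker lists covered mural cells and fibroblasts, macrophages, podocytes, proximal tubule, thick limb and distal tubule, collecting duct, erythroid cells, platelets, adipocytes and lymphocytes. Alternatives changed background correction, normalisation, the filter, the probe rule, the arrays used and the rule of size. A search for genes of like pattern was not run, since 1 contrast gives no pattern.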

Additional observations from a re-analysis of the deposited data

How the results depend on the processing

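The count of lower endothelial genes was 5, and it was 5 to 7 under the 9 alternatives that kept the 2-fold rule: 7 with median centring, 6 with Feature Extraction ratios, 6 on either array alone, and 5 under the other 5. With the 1.5-fold rule it was 9. The count of higher endothelial genes was 0 under all alternatives run. The endothelial median of −0.27 was −0.56 with median centring and −0.34 with Feature Extraction ratios, and ranged from −0.36 to −0.30 over the arrays alone. The difference from the median of all genes, an alternative added after seeing the data, lay between −0.34 and −0.20. Over all genes, the lower count of 1289 was 1973 with median centring, 2461 with Feature Extraction ratios, 2771 with the 1.5-fold rule, and 1280 to 1484 on single arrays. The higher count of 1109 was 2043 with Feature Extraction ratios, 2317 with the 1.5-fold rule, and 1154 to 1253 on single arrays. The cause was not tested. No paired analysis was possible because each condition is 1 RNA sample and the array number marks only a dye orientation. The slide as a block was not run, since both arrays share 1 slide. Signal over background limits Lyve1, which has only a bound, and compresses dim genes such as Pecam1, Nos3, Prox1 and Tal1.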

Other observations

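Markers of further cell types are given as values. Of 7 podocyte markers, 2 were lower by the rule of size (Synpo, at −1.04 ± 0.10, among them) and 0 higher, with a median of −0.46, and they summed to 1970 and 1990 with HMPA, against 3530 and 3300 with adenine alone. Of 5 markers of the thick limb and distal tubule, 3 were higher, with a median of 1.22, and they summed to 48700 and 51400 with HMPA, against 35800 and 41800 with adenine alone. Of 4 erythroid markers, 2 were measured and both were higher: Hba-a1 at 3.64 ± 0.59 and Alas2 at 2.47 ± 0.26. Of 5 adipocyte markers, 4 were measured and 2 were lower, Cfd at −4.84 ± 0.01 and Adipoq at −2.18 ± 0.06, and they summed to 623 and 600 with HMPA, against 9180 and 9140 with adenine alone. Their part in the endothelial ratios was not tested.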
